A study of Mus musculus with 15 samples.

Results

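Hearts of Nat10 knockout mice that had been given wild-type NAT10 by virus were compared with hearts of floxed control mice, to find what stayed abnormal, or went past the control level, after the rescue. The comparison uses 6 of the 15 samples of the series and 15321 of 54532 genes. The rescued hearts, CKO_NAT10, came from Nat10-CKO mice, a conditional knockout, that received AAV9-cTnT-NAT10. The controls, ff_GFP, came from Nat10flox/flox mice that received AAV9-cTnT-GFP. A further pair of groups frames the comparison: CKO_G641E, knockout mice that received NAT10 with the G641E substitution, and CKO_GFP, knockout mice that received the GFP virus. The remaining group, CKO_K209A, knockout mice labelled with the K209A form of NAT10, is not compared here. Its libraries still enter the gene filter, the principal components and the estimate of spread shared by the tests. Each group has 3 hearts from independent mice. Newborn mice received the virus subcutaneously 1 day after birth, and 12 to 14 days passed before the hearts were collected. AAV9 is a viral vector that reaches the heart, and the cTnT promoter (cardiac troponin T) drives the delivered gene in heart muscle cells and not in the other cells of the heart. The Cre driver of the knockout and the species of the delivered NAT10 sequence are not given in the sources used here.

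NAT10 is an RNA cytidine acetyltransferase of the nucleolus. It places N4-acetylcytidine on ribosomal RNA of the small subunit and on some tRNAs, and it takes part in assembly of the small ribosomal subunit. Faulty ribosome assembly is a known trigger of the p53 pathway, in which the transcription factor p53 turns on genes of growth arrest, DNA repair and cell death. In the weeks after birth heart muscle normally switches off fetal genes such as Nppa and builds up mitochondrial enzymes for burning fatty acids.

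The deposited values were FPKM, read densities scaled to gene length and library size, and 13218352 to 14226319 reads lay in genes in the CKO_NAT10 libraries, against 14353112 to 15196702 in the ff_GFP libraries. Heart muscle markers were read in both groups, with 8 of 8 measured. Among them, Myh6 stood at 4307, 4237 and 4894 FPKM in CKO_NAT10 and 6569, 5208 and 6538 FPKM in ff_GFP hearts. The floxed gene itself did not check the labels. Nat10 (ENSMUSG00000027185, chr2:103721256-103761270, GRCm38) was read at 2.89, 2.05 and 2.92 FPKM in CKO_NAT10 and 4.14, 3.87 and 4.28 FPKM in ff_GFP hearts, and at 3.47, 3.43 and 3.53 FPKM in CKO_GFP hearts. The groups CKO_NAT10 and ff_GFP did not overlap, with a log2 fold of -0.57 ± 0.11 (SE; limma, adjusted p = 0.02), so the hearts labelled as given NAT10 carried fewer reads of the mouse gene than the controls. That call was lost without ff_GFP replicate 1, 2 or 3 or CKO_NAT10 replicate 2 (limma, adjusted p = 0.0851, 0.053, 0.0754 and 0.0503). The gene-wide value holds reads of every heart cell and of exons that the knockout may leave in place, and delivered NAT10 was not counted separately. Group names below are therefore those of the labels. Along a first principal component with 51.0% of the variance, CKO_NAT10 replicates 1, 2 and 3 stood at -17.5, -29.3 and -27.2, ff_GFP hearts between -43.1 and -40.1, and CKO_GFP hearts between 19.9 and 54.3. Replicate 1 of CKO_NAT10 was thus the nearest of its group to the knockout. Xist, the RNA of the inactive X chromosome, stood at 13.5 FPKM in ff_GFP replicate 1 and 16 FPKM in CKO_NAT10 replicate 2. It was at no more than 0.262 FPKM in the other 4 hearts, so both groups mix the sexes. Xist was at 18.6, 20.4 and 0.287 FPKM in CKO_GFP and at no more than 0.225 FPKM in CKO_G641E hearts. The mix of sexes thus differs in these framing groups, and its part in their comparisons was not tested.

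A gene was called at an adjusted p under 0.05 in 1 limma model of log2(FPKM + 0.5). Between CKO_NAT10 and ff_GFP hearts, 378 genes were called, 2.47% of those tested. Of these, 121 were higher (0.79%) and 257 were lower (1.68%) in CKO_NAT10. Changes were mostly modest: the higher genes had a median log2 fold of 0.84 and the lower genes one of -0.57, and 92 genes (0.6%) passed 2-fold, 48 higher (0.313%) and 44 lower (0.287%). The groups did not overlap for any of the 378 genes, and they did not overlap for 25.4% of all genes tested. For comparison, 6212 genes (40.5%) were called between CKO_GFP and ff_GFP hearts, 19.8% higher and 20.8% lower, and 4776 (31.2%) between CKO_NAT10 and CKO_GFP hearts. These comparisons share their control or knockout libraries, so the counts stand side by side and are not independent.

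The direction of the remaining difference depended in part on scaling. The library size implied by the authors' FPKM, divided by the reads in genes, was 0.979 to 1.04 in CKO_NAT10 and 0.908 to 0.933 in ff_GFP hearts. Scaled to all reads in genes instead, the median log2 fold of all genes shifted by 0.11, and 202 genes were called higher and 83 lower. Of the main calls, 120 of the 121 higher and 83 of the 257 lower genes were called again. Single libraries also mattered: 92, 149 and 167 genes were called without ff_GFP replicates 1, 2 and 3, 109, 214 and 286 without CKO_NAT10 replicates 1, 2 and 3, and 719 without CKO_GFP replicate 1, which enters through the shared estimate of spread. Through every one of 19 alternative settings, 27 higher and 31 lower genes kept their call and direction. The higher ones include Nppa, Cdkn1a, Eda2r, Phlda3, Ankrd1, Bax and Mdm2, and the lower ones Rpl3l, Hcn4, Angpt1, Mtr, Adra1b and Cox7a1.

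Of the 378 genes, 360 stayed abnormal, that is, they were also called between CKO_GFP and ff_GFP hearts in the same direction (108 higher, 252 lower). For 267 of these the direct comparison of CKO_NAT10 with CKO_GFP was called towards ff_GFP (79 higher, 188 lower): the gene moved back but not all the way. For 92 it was not called (28 higher, 64 lower). For 1 gene, Shmt1, it was called away from ff_GFP. By point value alone, 32 of the 360 genes were farther from ff_GFP in CKO_NAT10 than in CKO_GFP hearts. No gene was called on opposite sides of ff_GFP in the rescued and the knockout hearts, and 18 genes were called with NAT10 and not in the knockout. Among the genes higher in CKO_NAT10 the median log2 fold was 0.84 there and 1.46 in CKO_GFP, each against ff_GFP, and among the lower genes it was -0.57 and -1.25.

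**Figure D1:**
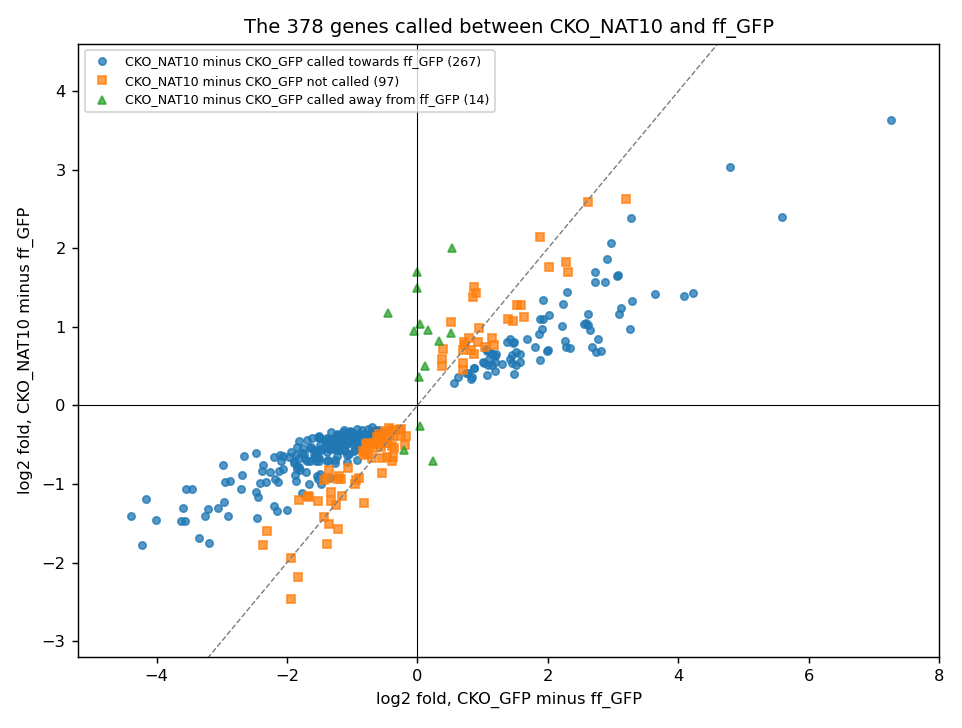
Each point is 1 of the 378 genes called between CKO_NAT10 and ff_GFP hearts, with its log2 fold in that comparison (vertical axis) against its log2 fold of CKO_GFP minus ff_GFP (horizontal axis). The dashed line marks equal folds, and colours give the direct comparison of CKO_NAT10 with CKO_GFP; both axes share ff_GFP. Most points lie between the dashed line and the horizontal zero line, and Nppa is the point at the upper right with 3.64 against 7.26.

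Targets of p53 were the list with the largest share of called genes among those of 15 or more tested genes, except without CKO_NAT10 replicate 3, where the tricarboxylic acid cycle had 12 of 23 called and p53 targets 12 of 32. Of 32 tested members, 17 were higher in CKO_NAT10 and 0 were lower, against 0.79% and 1.68% of all genes, and their median log2 fold was 0.66, against -0.01 for all genes. In CKO_GFP against ff_GFP hearts 28 were higher, with a median of 1.57, where 19.8% of all genes were higher. Scaled to all reads in genes, 17 were again called higher. Without ff_GFP replicates 1, 2 and 3 the count was 10, 12 and 11, and without CKO_NAT10 replicates 1, 2 and 3 it was 11, 13 and 12.

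Cdkn1a (chr17:29090976-29100727), which encodes the p21 inhibitor of cyclin-dependent kinases, led the group. It was read at 101, 68.5 and 79.7 FPKM in CKO_NAT10 and 9.97, 10.5 and 8.46 FPKM in ff_GFP hearts, beside 221, 330 and 298 FPKM in CKO_GFP hearts. Every rescued heart thus lay far above every control and below every knockout heart. The log2 fold was 3.03 ± 0.15 (SE; limma, adjusted p = 5.6e-07) against ff_GFP and -1.76 (limma, adjusted p = 6e-06) against CKO_GFP. Eda2r, a receptor of the TNF receptor family, was read at 6.77, 6.2 and 6.41 FPKM in CKO_NAT10 and 0.836, 0.685 and 0.99 FPKM in ff_GFP hearts (log2 fold 2.39 ± 0.13 SE, limma, adjusted p = 9.3e-07). Phlda3, which restrains Akt signalling, was read at 86.9, 53.6 and 78 FPKM in CKO_NAT10 and 21.1, 16.8 and 20.1 FPKM in ff_GFP hearts (log2 fold 1.86 ± 0.17 SE, limma, adjusted p = 0.00014). Each of these genes was called lower in CKO_NAT10 than in CKO_GFP, and so lay between the other groups.

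The members cover several arms of the pathway. Among genes of cell death, Aen, an exonuclease of apoptosis, averaged 14.7 FPKM in CKO_NAT10 and 5.74 FPKM in ff_GFP hearts, and Bax, which permeabilises mitochondria, averaged 23.8 FPKM in CKO_NAT10 and 10.7 FPKM in ff_GFP hearts (log2 folds 1.29 and 1.1). The receptor Tnfrsf10b rose by a log2 fold of 0.70, a call that was lost without any 1 of the 6 libraries. Zmat3, an RNA-binding protein, averaged 4.43 FPKM in CKO_NAT10 and 1.80 FPKM in ff_GFP hearts, and Polk, a DNA polymerase that copies past damage, 2.59 FPKM in CKO_NAT10 and 1.27 FPKM in ff_GFP hearts. Mdm2 (chr10:117688875-117710758), the ubiquitin ligase that holds p53 down, was read at 21.9, 19.8 and 21.1 FPKM in CKO_NAT10 and 13.6, 14.2 and 13.6 FPKM in ff_GFP hearts (log2 fold 0.58 ± 0.09 SE, limma, adjusted p = 0.0057). Ccng1, encoding cyclin G1, moved little under rescue: 243, 256 and 270 FPKM in CKO_NAT10, 277, 284 and 293 FPKM in CKO_GFP, and 167, 191 and 171 FPKM in ff_GFP hearts. Its call against ff_GFP was lost without ff_GFP replicate 1 (limma, adjusted p = 0.0658), and its difference from CKO_GFP, a log2 fold of -0.15, was not called (limma, adjusted p = 0.25). Other members did not pass against ff_GFP: Pmaip1, a death gene of the BCL2 family, averaged 0.529 FPKM in CKO_NAT10, 3.78 in CKO_GFP and 0.239 in ff_GFP hearts, and the death receptor Fas 5.85 FPKM in CKO_NAT10, 12.6 in CKO_GFP and 5.10 in ff_GFP hearts.

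**Figure D2:**
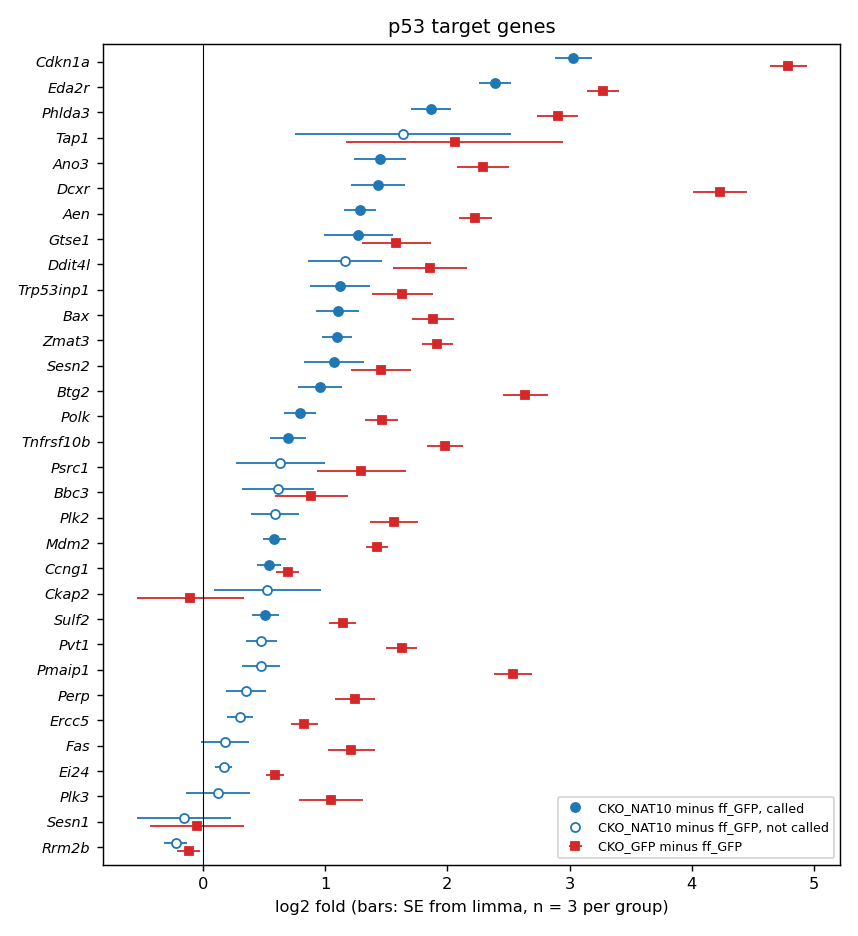
Log2 folds of the 32 tested p53 targets with their standard errors from limma (3 hearts a group), for CKO_NAT10 minus ff_GFP (blue, filled where called) and CKO_GFP minus ff_GFP (red squares). Cdkn1a and Eda2r have the highest values in CKO_NAT10 at 3.03 and 2.39, and 17 blue points are filled.

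The promoters of 4 of these genes are shown because they carry the p53 decamer, the 10-base motif of which a full p53 site holds 2 copies. Each runs from 250 bases before to 50 after a RefSeq gene start on GRCm38.p6, with matches in capitals. Cdkn1a and Aen each have 2 such promoters, and the promoter with the most matches was taken. The Cdkn1a stretch is chr17:29090729-29091028 (plus strand), that of Mdm2 is chr10:117710709-117711008 (minus strand), that of Aen is chr7:78895677-78895976 (plus strand) and that of Ccng1 is chr11:40755237-40755536 (minus strand).
Cdkn1a: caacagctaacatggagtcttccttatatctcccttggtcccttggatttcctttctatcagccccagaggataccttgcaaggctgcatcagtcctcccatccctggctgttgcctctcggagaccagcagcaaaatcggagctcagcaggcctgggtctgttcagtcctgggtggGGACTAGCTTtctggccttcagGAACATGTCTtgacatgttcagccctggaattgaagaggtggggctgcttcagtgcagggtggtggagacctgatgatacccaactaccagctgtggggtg
Mdm2: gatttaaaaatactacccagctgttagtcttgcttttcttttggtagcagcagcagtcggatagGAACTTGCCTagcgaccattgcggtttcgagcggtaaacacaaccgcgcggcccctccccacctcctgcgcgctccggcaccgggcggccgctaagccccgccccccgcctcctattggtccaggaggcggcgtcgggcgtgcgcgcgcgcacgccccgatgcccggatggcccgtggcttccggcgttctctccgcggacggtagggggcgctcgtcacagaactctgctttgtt
Aen: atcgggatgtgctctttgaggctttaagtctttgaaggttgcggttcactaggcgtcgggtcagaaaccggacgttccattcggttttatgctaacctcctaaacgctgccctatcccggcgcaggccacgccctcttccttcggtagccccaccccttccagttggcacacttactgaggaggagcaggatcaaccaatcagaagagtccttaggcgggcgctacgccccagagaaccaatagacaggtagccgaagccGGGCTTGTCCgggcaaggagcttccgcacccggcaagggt
Ccng1: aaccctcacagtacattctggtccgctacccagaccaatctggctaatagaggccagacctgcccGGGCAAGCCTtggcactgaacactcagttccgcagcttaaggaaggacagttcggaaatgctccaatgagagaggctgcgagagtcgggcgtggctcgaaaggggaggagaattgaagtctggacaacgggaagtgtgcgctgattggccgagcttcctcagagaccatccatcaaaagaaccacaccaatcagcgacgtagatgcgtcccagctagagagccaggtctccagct
The decamer was searched on both strands and was found in 8 of 20 promoters of the called p53 targets, which belong to 7 of the 14 genes with a promoter in the table. Among all 32851 promoters of the table, 8.36% hold it. A match describes these letters and does not show binding.

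Fetal and stress genes of heart muscle split into a few that stayed far from control and many that did not. Of 24 tested members, 5 were higher in CKO_NAT10 (Nppa, Acta1, Ankrd1, Nmrk2 and Nppb) and 1 was lower (Fhl2), against 0.79% and 1.68% of all genes, and the median log2 fold was 0.05. In CKO_GFP against ff_GFP hearts 17 were higher and 3 lower, against 19.8% and 20.8% of all genes in that comparison. Without ff_GFP replicates 1, 2 and 3 there were 2, 2 and 3 higher, and without CKO_NAT10 replicates 1, 2 and 3 there were 3, 5 and 3. Nppa (chr4:148000722-148002079), which encodes atrial natriuretic peptide, was read at 515, 126 and 268 FPKM in CKO_NAT10, 1897, 4164 and 4136 FPKM in CKO_GFP and 26, 17.5 and 18.5 FPKM in ff_GFP hearts. It had the largest called rise of any gene, with a log2 fold of 3.64 ± 0.44 (SE; limma, adjusted p = 0.0011), although the rescue had lowered it by a log2 fold of -3.62 relative to CKO_GFP. Values of the 3 groups did not overlap. Of 8 tested genes of the atria, 2 were higher, Nppa and Dkk3, and 1 was lower, Kcnj3. Dkk3, a secreted protein of the Dickkopf family, was read at 8.43, 8.73 and 8.17 FPKM in CKO_NAT10, 23, 27 and 25.7 FPKM in CKO_GFP and 3.71, 3.8 and 4.11 FPKM in ff_GFP hearts, without overlap (log2 fold 1.03 ± 0.16 SE, limma, adjusted p = 0.0062). Of genes that define atrial muscle, Sln, sarcolipin, was at 0 FPKM in all 6 hearts, and the atrial myosin light chain Myl7 was read at 0.697, 0.357 and 0.262 FPKM in CKO_NAT10 and 0, 0.253 and 0 FPKM in ff_GFP hearts.

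Nppb, which encodes brain natriuretic peptide and lies beside Nppa, was read at 313, 299 and 487 FPKM in CKO_NAT10 and 143, 151 and 159 FPKM in ff_GFP hearts, a log2 fold of 1.24 ± 0.23 (SE; limma, adjusted p = 0.017). Its call was lost without ff_GFP replicate 1 or 2 (limma, adjusted p = 0.0767 and 0.0588). Ankrd1, a stretch-responsive ankyrin repeat protein of the sarcomere and nucleus, was read at 1162, 668 and 826 FPKM in CKO_NAT10 and 289, 256 and 276 FPKM in ff_GFP hearts, a log2 fold of 1.66 ± 0.22 (SE; limma, adjusted p = 0.0026). Both peptide genes and Ankrd1 remained well above control in every rescued heart.

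Acta1, the skeletal alpha-actin of the fetal heart, did not move back by a called amount. It was read at 293, 114 and 215 FPKM in CKO_NAT10, 215, 308 and 187 FPKM in CKO_GFP and 28.6, 77 and 83 FPKM in ff_GFP hearts. The difference from CKO_GFP was a log2 fold of -0.26 (limma, adjusted p = 0.68) and that from ff_GFP one of 1.76 ± 0.41 (SE; limma, adjusted p = 0.042). The call against ff_GFP was lost without any ff_GFP replicate or without CKO_NAT10 replicate 1 or 3 (limma, adjusted p = 0.056 to 0.196). In contrast, several strong knockout genes of the panel were near control: Sprr1a, a cornified-envelope gene induced in injured heart, averaged 0.061 FPKM in CKO_NAT10, 17.3 in CKO_GFP and 0.0294 in ff_GFP hearts, and Myh7, the slow myosin heavy chain, 21.5 FPKM in CKO_NAT10, 104 in CKO_GFP and 29.8 in ff_GFP hearts. Neither was called between CKO_NAT10 and ff_GFP.

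**Figure D3:**
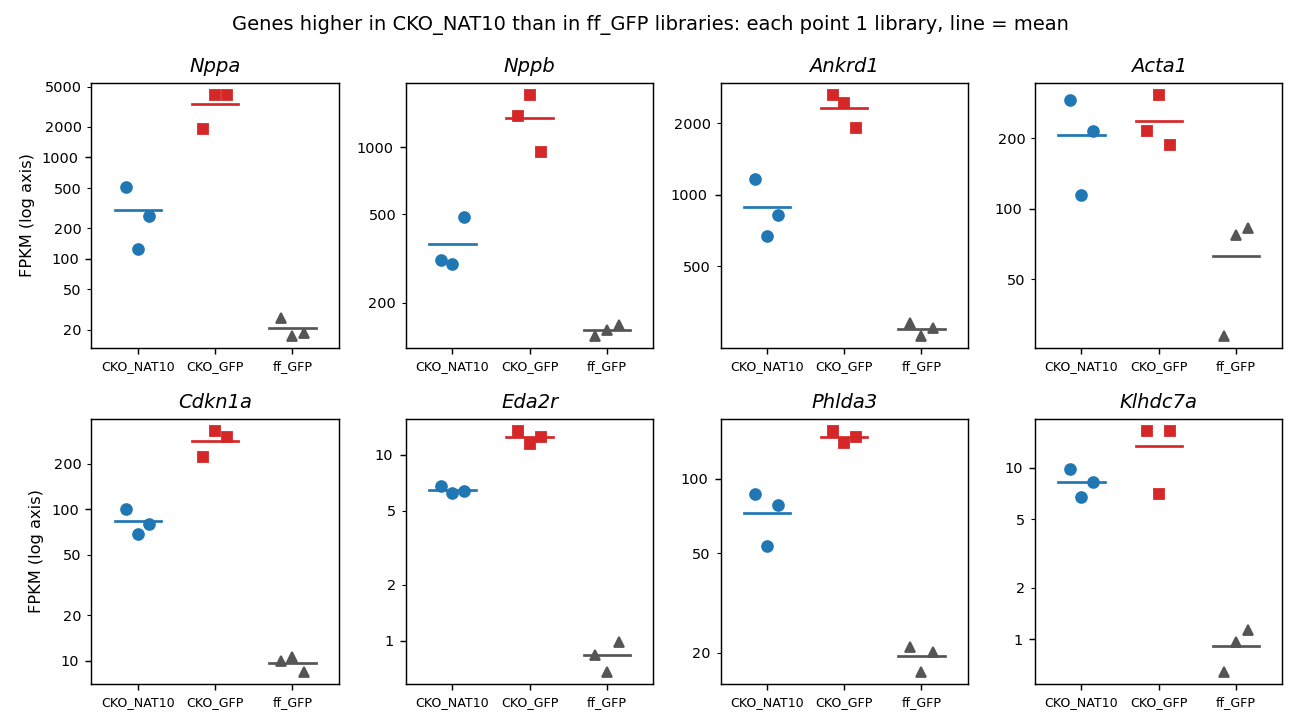
FPKM in each library (log axis, 1 point per library, line at the mean of 3) for 8 genes higher in CKO_NAT10 than in ff_GFP hearts, with CKO_GFP between them on the axis. In all 8 panels the CKO_NAT10 points lie above the ff_GFP points; Acta1 and Klhdc7a overlap CKO_GFP.

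The promoters of Nppa, chr4:148000472-148000771 (plus strand), and Acta1, chr8:123894726-123895025 (minus strand), show the TATAAA box in capitals. That of Acta1 also has in capitals a CATTCC element (MCAT, bound by TEAD factors) and a CArG box (bound by serum response factor).
Nppa: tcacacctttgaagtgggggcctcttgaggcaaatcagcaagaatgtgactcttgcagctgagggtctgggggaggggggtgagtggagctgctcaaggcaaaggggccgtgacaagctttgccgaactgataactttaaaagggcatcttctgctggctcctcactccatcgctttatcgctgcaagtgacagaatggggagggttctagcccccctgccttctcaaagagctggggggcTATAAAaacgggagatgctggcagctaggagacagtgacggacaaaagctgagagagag
Acta1: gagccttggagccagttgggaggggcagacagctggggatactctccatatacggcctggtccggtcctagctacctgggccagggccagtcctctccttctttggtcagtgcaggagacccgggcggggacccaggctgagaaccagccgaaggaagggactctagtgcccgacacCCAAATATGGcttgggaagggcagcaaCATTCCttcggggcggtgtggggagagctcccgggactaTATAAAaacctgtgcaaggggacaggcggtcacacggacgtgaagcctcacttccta
TATAAA occurred in 5 of 7 promoters of the 6 called genes of this list and in 13.6% of all promoters. CATTCC was found in promoters of Acta1, Ankrd1 and Nppb and in 14.7% of all promoters, and the CArG box in those of Acta1 and Fhl2 and in 1.63% of all promoters, with both strands searched.

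Among protein-coding genes, a large deficit was that of Rpl3l (chr17:24727820-24736143), the striated-muscle form of ribosomal protein L3. It was read at 12.9, 13.7 and 21.6 FPKM in CKO_NAT10, 3.22, 2.09 and 2.24 FPKM in CKO_GFP and 45.7, 57.2 and 63.7 FPKM in ff_GFP hearts. The groups did not overlap, and the log2 fold was -1.78 ± 0.19 (SE; limma, adjusted p = 0.00066) against ff_GFP and 2.44 against CKO_GFP. The broadly expressed Rpl3 was read at 112, 106 and 113 FPKM in CKO_NAT10 and 104, 90.6 and 92.9 FPKM in ff_GFP hearts, and its log2 fold of 0.20 was not called (limma, adjusted p = 0.25). Of 79 cytosolic ribosomal protein genes, only Rps19 was called against ff_GFP (log2 fold 0.54, limma, adjusted p = 0.036, kept without only 1 of the 6 libraries), and 8 were called higher when values were scaled to all reads. With quantile normalization 11 were called higher. The list's median was 0.18 in CKO_NAT10 and 0.85 in CKO_GFP, each against ff_GFP. In CKO_NAT10, 72 of the 79 were above 0, where the median of all genes was -0.01. Of 67 genes of ribosome biogenesis and the nucleolus, 1 was called, Nat10. By calls in the main fit both lists were thus near the share of all genes, of which 2.47% were called. The ribosomal protein genes still lay mostly a little above control.

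Genes of mitochondrial energy supply were a little below control together. Of 23 tested genes of the tricarboxylic acid cycle, 10 were lower in CKO_NAT10 and 0 higher, with a median log2 fold of -0.31 and all 23 below 0. Of 34 genes of fatty acid uptake and oxidation, 9 were lower and 0 higher (median -0.39, 33 below 0), and of 74 nuclear genes of the respiratory chain 9 were lower and 0 higher (median -0.25, 72 below 0). All genes tested had 1.68% called lower and a median of -0.01. In CKO_GFP against ff_GFP hearts the medians were -1.05, -1.32 and -0.65 for the 3 lists. There 23, 28 and 64 genes were lower, against 20.8% of all genes. By these medians, rescue had restored most but not all of the level.

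Cpt2 (chr4:107903981-107923610), the inner-membrane carnitine palmitoyltransferase, was read at 70.3, 76.9 and 90.8 FPKM in CKO_NAT10, 30.6, 29.1 and 32.5 FPKM in CKO_GFP and 122, 124 and 112 FPKM in ff_GFP hearts (log2 fold against ff_GFP -0.59 ± 0.09 SE, limma, adjusted p = 0.0052). Cox7a1 (chr7:30184144-30186078), the muscle isoform of a cytochrome c oxidase subunit, was read at 207, 228 and 235 FPKM in CKO_NAT10 and 354, 348 and 320 FPKM in ff_GFP hearts (log2 fold -0.61 ± 0.09 SE, limma, adjusted p = 0.0033). Every rescued heart lay below every control for both genes, and both calls held without any 1 of the 6 libraries. Milder members, whose calls held in 1 to 4 of the 6 fits without a library, include Acsl1, which activates fatty acids, with 94.9 FPKM in CKO_NAT10 and 124 FPKM in ff_GFP hearts, and Sdhc of succinate dehydrogenase with 92.0 FPKM in CKO_NAT10 and 119 FPKM in ff_GFP hearts. Sucla2 of succinyl-CoA ligase averaged 116 FPKM in CKO_NAT10 and 160 FPKM in ff_GFP hearts, and Ndufs1 of complex I 64.9 FPKM in CKO_NAT10 and 85.3 FPKM in ff_GFP hearts. The fatty acid importer Cd36 averaged 394 FPKM in CKO_NAT10 and 489 FPKM in ff_GFP hearts and Cpt1b, the outer-membrane transferase, 2.26 FPKM in CKO_NAT10 and 3.22 FPKM in ff_GFP hearts, and neither was called (limma, adjusted p = 0.37 and 0.35).

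The shift of these lists was steadier than their calls. Without ff_GFP replicates 1, 2 and 3 the tricarboxylic acid cycle had 1, 0 and 2 genes called lower, and without CKO_NAT10 replicates 1, 2 and 3 it had 0, 1 and 12; for fatty acid genes these counts were 1, 1, 6, 1, 3 and 10, and for the respiratory chain 1, 1, 2, 1, 3 and 8. With values scaled to all reads in genes, 0, 1 and 1 genes of the 3 lists were called lower, and the medians were -0.18, -0.26 and -0.12 where that of all genes was 0.09. Beside these genes, all 8 heart muscle markers were below 0 in log2 fold (median -0.37, 1 called, Tnni3), and their summed level was 16458 to 20154 FPKM in CKO_NAT10 against 21787 to 23586 FPKM in ff_GFP hearts. The part of muscle content in the mitochondrial deficit was not tested, and in bulk tissue fewer muscle cells and less RNA per muscle cell cannot be told apart. The regulators Ppargc1a, Ppara and Esrra were not called, with log2 folds of -0.15, 0.09 and -0.21.

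Glucose genes were mixed, with 1 of 26 higher and 3 lower, against 0.79% and 1.68% of all genes. Slc2a1, the GLUT1 transporter of the fetal heart, was read at 3.95, 3.1 and 3.33 FPKM in CKO_NAT10, 13.1, 15.6 and 15.3 FPKM in CKO_GFP and 1.55, 1.77 and 2.33 FPKM in ff_GFP hearts, and stayed above control (log2 fold 0.74 ± 0.12 SE, limma, adjusted p = 0.0082). The lower genes were Phkg1, a catalytic subunit of phosphorylase kinase, Pygm, muscle glycogen phosphorylase, and Pdk2, a kinase that inhibits pyruvate dehydrogenase (log2 folds -1.33, -0.57 and -0.46); without ff_GFP replicate 1 no glucose gene was called lower, and without ff_GFP replicate 3 or CKO_NAT10 replicate 1 there was 1. The adult transporter Slc2a4 averaged 55.4 FPKM in CKO_NAT10 and 75 FPKM in ff_GFP hearts and was not called (log2 fold -0.44, limma, adjusted p = 0.061).

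Ion channel genes of the heart held some of the larger deficits. Of 29 tested genes, 7 were lower and 0 higher in CKO_NAT10, against 1.68% and 0.79% of all genes, with a median log2 fold of -0.33 where that of all genes was -0.01. Kcnj3, a subunit of the acetylcholine-gated potassium channel, was read at 0.933, 3.39 and 2.03 FPKM in CKO_NAT10, 0.0604, 0.0858 and 0.0513 FPKM in CKO_GFP and 5.78, 7.32 and 5.58 FPKM in ff_GFP hearts (log2 fold -1.47 ± 0.26 SE, limma, adjusted p = 0.013, lost at 0.0554 and 0.0592 without ff_GFP replicates 1 and 2). Hcn4, the pacemaker channel, was read at 1.12, 0.986 and 0.859 FPKM in CKO_NAT10 and 4.99, 2.65 and 3.85 FPKM in ff_GFP hearts (log2 fold -1.51 ± 0.24 SE, limma, adjusted p = 0.0063). Against the knockout, Kcnj3 was called higher in CKO_NAT10 (log2 fold 2.09), and Hcn4, at 0.916, 0.988 and 1.62 FPKM in CKO_GFP hearts, was not (log2 fold -0.15, limma, adjusted p = 0.68). Scn4a, a sodium channel best known from skeletal muscle, averaged 1.14 FPKM in CKO_NAT10 and 3.20 FPKM in ff_GFP hearts. Without ff_GFP replicates 1, 2 and 3 the list had 2, 4 and 4 genes called lower, and without CKO_NAT10 replicates 1, 2 and 3 it had 4, 4 and 5; scaled to all reads it had 4. Kcnip2, a subunit of the transient outward current that was nearly lost in CKO_GFP hearts at 2.62 FPKM, averaged 44.3 FPKM in CKO_NAT10 and 46.3 FPKM in ff_GFP hearts.

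Calcium handling and sarcomere genes were mostly below control by less than the calls could resolve. Of 21 calcium handling genes 3 were lower (median -0.37), and of 26 sarcomere genes 2 were lower (median -0.24), with 0 higher in either list, against 1.68% of all genes lower and 0.79% higher; scaled to all reads, 0 were called in either. Atp2a2 (chr5:122453513-122502225), the SERCA2 calcium pump, was read at 1364, 1575 and 1630 FPKM in CKO_NAT10, 869, 691 and 801 FPKM in CKO_GFP and 2390, 2235 and 2299 FPKM in ff_GFP hearts (log2 fold -0.60 ± 0.11 SE, limma, adjusted p = 0.015). Its call was lost without ff_GFP replicate 1 or 3 or CKO_NAT10 replicate 1 (limma, adjusted p = 0.0759, 0.0513 and 0.0817). Without ff_GFP replicate 1, ff_GFP replicate 3 or CKO_NAT10 replicate 1 no calcium handling gene was called. Tnni3, cardiac troponin I, averaged 890 FPKM in CKO_NAT10 and 1153 FPKM in ff_GFP hearts, and Tpm1, alpha-tropomyosin, 805 FPKM in CKO_NAT10 and 1121 FPKM in ff_GFP hearts. Of the 6 fits without a library, Tnni3 and Tpm1 were both called only without CKO_NAT10 replicate 3 (limma, adjusted p = 0.0172 and 0.0395). The sarcomere list had 0 called without ff_GFP replicate 1 or 3 or CKO_NAT10 replicate 1 or 2, and 1 without ff_GFP replicate 2. Ryr2, the calcium release channel, and Myh6, the adult myosin heavy chain, had log2 folds of -0.37 and -0.44 and were not called.

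**Figure D4:**
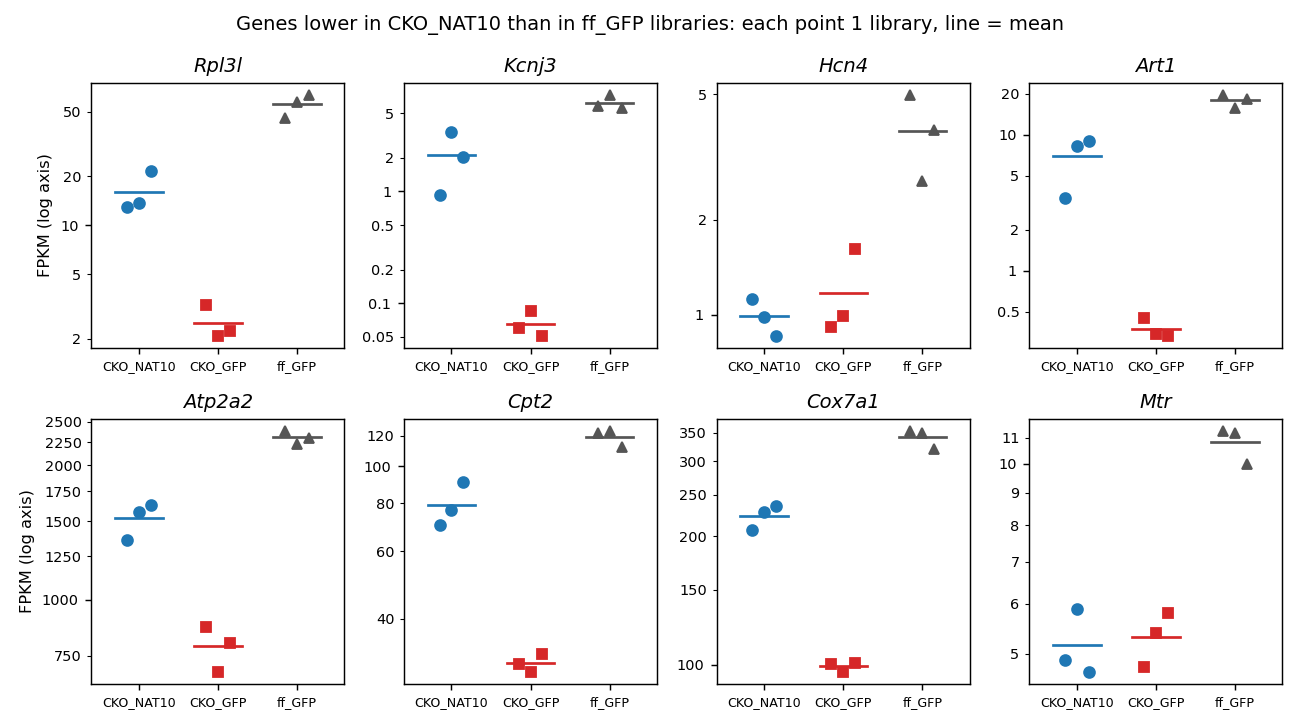
FPKM in each library (log axis, 1 point per library, line at the mean of 3) for 8 genes lower in CKO_NAT10 than in ff_GFP hearts, with CKO_GFP between them on the axis. CKO_NAT10 points lie below ff_GFP in all 8 panels; for Hcn4 and Mtr they overlap CKO_GFP, and for the other 6 they lie above it.

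Further lower genes had other roles in muscle and signalling. Art1, an ADP-ribosyltransferase of the cell surface, was read at 3.44, 8.29 and 9.05 FPKM in CKO_NAT10, 0.448, 0.345 and 0.333 FPKM in CKO_GFP and 19.7, 15.7 and 18.2 FPKM in ff_GFP hearts (log2 fold -1.40 ± 0.25 SE, limma, adjusted p = 0.012, and 0.0638 without ff_GFP replicate 1). Adra1b, an alpha-1 adrenergic receptor, was read at 12.3, 13.1 and 12.9 FPKM in CKO_NAT10 and 29.5, 26.6 and 28 FPKM in ff_GFP hearts (log2 fold -1.11 ± 0.10 SE, limma, adjusted p = 0.00014). Replicates 2 and 3 of the rescued hearts were well above replicate 1 for Art1, and the 3 agreed closely for Adra1b. Cmya5, a muscle protein of the calcium release region, averaged 13.7 FPKM in CKO_NAT10 and 26.7 FPKM in ff_GFP hearts, and Grb14, an adaptor that inhibits the insulin receptor, 13.3 FPKM in CKO_NAT10 and 24.0 FPKM in ff_GFP hearts. Tnni2, fast skeletal troponin I, averaged 0.472 FPKM in CKO_NAT10 and 2.38 FPKM in ff_GFP hearts, and the water channel Aqp4 3.26 FPKM in CKO_NAT10 and 9.21 FPKM in ff_GFP hearts. The growth hormone receptor Ghr averaged 12.3 FPKM in CKO_NAT10 and 18.3 FPKM in ff_GFP hearts (log2 fold -0.56), a call lost without ff_GFP replicate 1 or 2 or CKO_NAT10 replicate 1 (limma, adjusted p = 0.0708, 0.0639 and 0.0895). The Aqp4 call was lost without ff_GFP replicate 1, and that of Tnni2 without any ff_GFP replicate or CKO_NAT10 replicate 1 (limma, adjusted p = 0.0655 for Aqp4 and 0.0588 to 0.0914 for Tnni2).

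Matrix genes were mostly above control, and a minority of them were called. Of 57 tested members 5 were higher and 0 lower in CKO_NAT10, against 0.79% and 1.68% of all genes. The median log2 fold was 0.33, against -0.01 for all genes, and 56 were above 0. Periostin, Postn, a matricellular protein of activated fibroblasts, was read at 63.9, 66 and 57.4 FPKM in CKO_NAT10, 171, 270 and 147 FPKM in CKO_GFP and 27.1, 33.1 and 31.6 FPKM in ff_GFP hearts (log2 fold 1.02 ± 0.19 SE, limma, adjusted p = 0.016, lost at 0.0808, 0.0737 and 0.053 without ff_GFP replicate 1 and CKO_NAT10 replicates 1 and 2). Col1a2, a chain of type I collagen, averaged 87.2 FPKM in CKO_NAT10 and 61.3 FPKM in ff_GFP hearts, while Col14a1, a fibril-associated collagen, was read at 20.3, 19 and 16.6 FPKM in CKO_NAT10 and 9.07, 9.82 and 11.2 FPKM in ff_GFP hearts. The other chain of type I collagen, Col1a1, averaged 232 FPKM in CKO_NAT10 and 171 FPKM in ff_GFP hearts and was not called (limma, adjusted p = 0.1). Ctgf, a matricellular gene of stress, averaged 39.0 FPKM in CKO_NAT10, 557 in CKO_GFP and 14.0 in ff_GFP hearts, with a log2 fold of 1.44 that was not called against ff_GFP (limma, adjusted p = 0.12). The 14 fibroblast markers summed to 916 to 993 FPKM in CKO_NAT10 and 770 to 888 FPKM in ff_GFP hearts, with a median log2 fold of 0.19 and 0 called; their part in the matrix values was not tested. Without ff_GFP replicate 1 or CKO_NAT10 replicate 1 no matrix gene was called, without ff_GFP replicate 2 or CKO_NAT10 replicate 2 there was 1, and scaled to all reads there were 10.

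**Figure D5:**
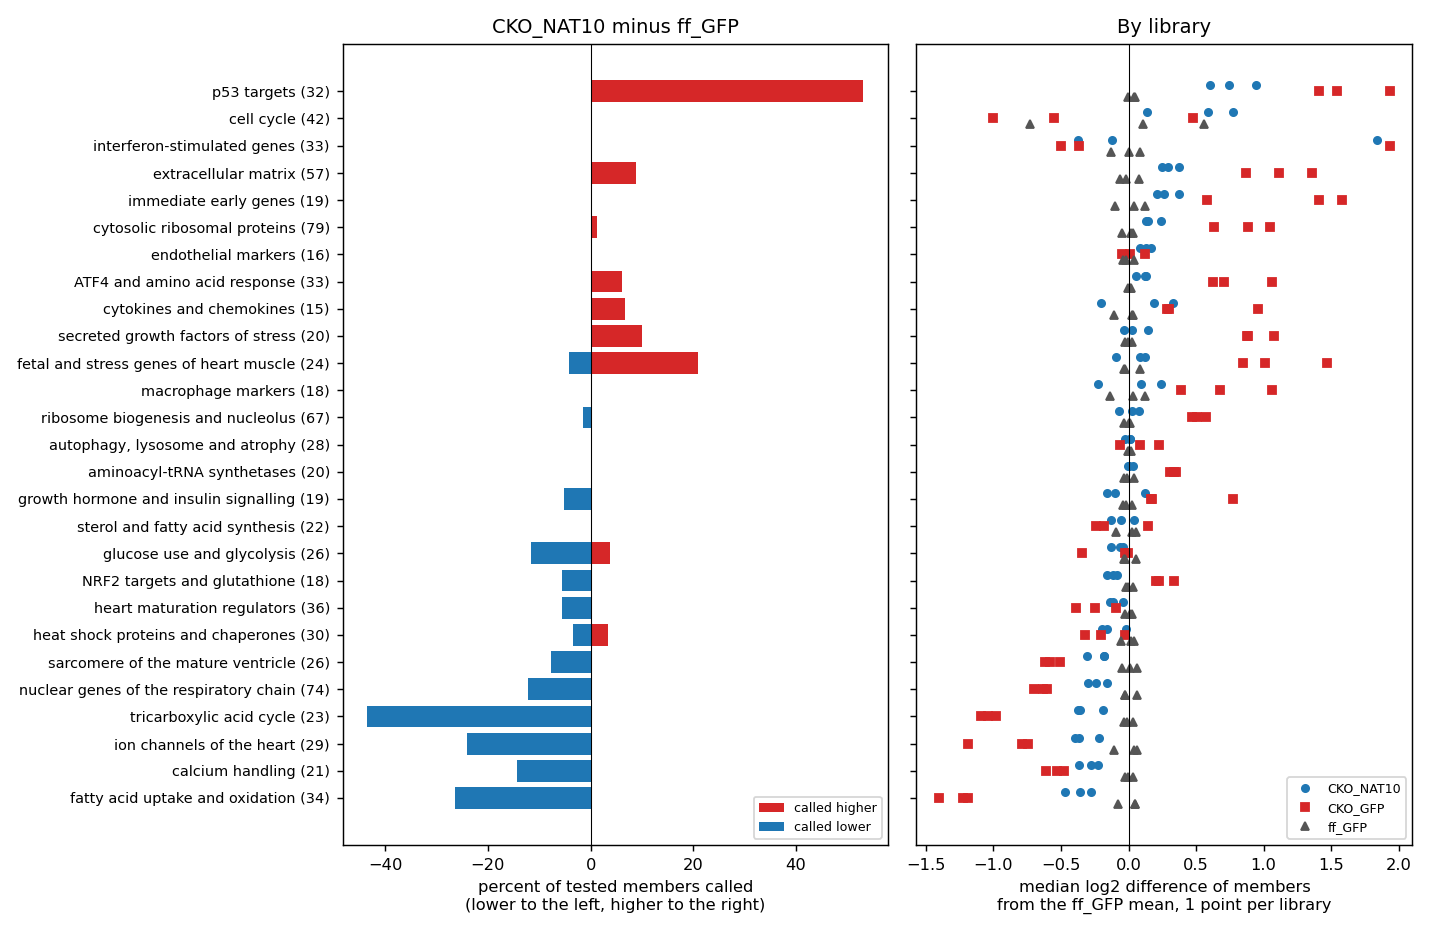
Left, for each list with 15 or more tested genes (number in brackets), the percent of members called higher (right of 0) or lower (left of 0) between CKO_NAT10 and ff_GFP hearts. Right, the median log2 difference of the members from the ff_GFP mean in each library. p53 targets stand apart with 17 of 32 called higher, and tricarboxylic acid cycle genes have 10 of 23 called lower. For interferon-stimulated genes, CKO_NAT10 replicate 2 stands at 1.84 and CKO_GFP replicate 1 at 1.93.

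Some genes differed from control by a like amount after rescue and without it. Mtr (chr13:12182712-12258113), methionine synthase, was read at 4.89, 5.89 and 4.69 FPKM in CKO_NAT10, 4.77, 5.4 and 5.8 FPKM in CKO_GFP and 11.3, 11.2 and 10 FPKM in ff_GFP hearts. Its log2 fold was -1.01 ± 0.10 (SE; limma, adjusted p = 0.00029) against ff_GFP and -0.04 against CKO_GFP. Angpt1, the ligand that activates the endothelial receptor Tie2, was read at 0.803, 1.39 and 1.22 FPKM in CKO_NAT10, 0.932, 1.15 and 1.25 FPKM in CKO_GFP and 4.48, 3.93 and 3.17 FPKM in ff_GFP hearts. For both genes the rescued and knockout hearts overlapped each other and lay below every control. Klhdc7a, a kelch-domain protein, was high in both, at 9.77, 6.71 and 8.24 FPKM in CKO_NAT10, 16.4, 7.06 and 16.5 FPKM in CKO_GFP and 0.65, 0.966 and 1.14 FPKM in ff_GFP hearts. Rgma and Apmap, lower by log2 folds of -0.79 and -0.67, and Rhbdl3, at 1.39 FPKM in CKO_NAT10 and 3.59 FPKM in ff_GFP hearts, showed the same pattern and kept their call in all 19 settings; these 3 were picked after their values were seen. A miss between CKO_NAT10 and CKO_GFP does not show that the level was equal there.

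Shmt1, cytosolic serine hydroxymethyltransferase of the folate cycle, went farther from control under rescue. It was read at 3.3, 3.74 and 4.74 FPKM in CKO_NAT10, 2.58, 3.15 and 2.69 FPKM in CKO_GFP and 1.53, 1.92 and 2 FPKM in ff_GFP hearts, and the 3 groups did not overlap. The log2 fold was 0.93 ± 0.13 (SE; limma, adjusted p = 0.0028) against ff_GFP and 0.41 (limma, adjusted p = 0.026) against CKO_GFP.

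The 18 genes called with NAT10 and not in the knockout comprised 13 higher and 5 lower ones. Pcbd1, a dehydratase that recycles the tetrahydrobiopterin cofactor, was read at 2.85, 2.58 and 2.46 FPKM in CKO_NAT10, 0.308, 0.548 and 0.737 FPKM in CKO_GFP and 0.798, 0.823 and 1.04 FPKM in ff_GFP hearts. The log2 fold was 1.17 ± 0.20 (SE; limma, adjusted p = 0.0099) against ff_GFP and 1.62 (limma, adjusted p = 7.3e-05) against CKO_GFP. Its call against ff_GFP was lost without ff_GFP replicate 1 or CKO_NAT10 replicate 1 (limma, adjusted p = 0.0556 and 0.053), and without CKO_GFP replicate 3 it was called on opposite sides of control in the rescued and knockout hearts. Lrrc2, a leucine-rich repeat protein of muscle, was read at 29.9, 35.1 and 32.8 FPKM in CKO_NAT10, 24.9, 21.6 and 22.6 FPKM in CKO_GFP and 16.8, 17.7 and 20.4 FPKM in ff_GFP hearts. Rescued hearts were highest in all 3 replicates for both genes, and Lrrc2 kept its call in all 19 settings (log2 fold 0.82 ± 0.13 SE, limma, adjusted p = 0.0053). Fstl4 and Gnb3 were also higher (log2 folds 1.03 and 0.96, called in 2 and 1 of the 6 fits without a library), with the lower members Enho, Wfs1, Jagn1 and Prkar2a between -0.71 and -0.26 besides Nat10. Another pair, Mir320 and Gm44462, rested on 1 or 2 reads in each CKO_NAT10 heart with 0 in CKO_GFP and ff_GFP hearts. No CKO_GFP or ff_GFP heart helped this pair pass the filter, so their calls support no change. In all, 9 of the 378 genes averaged under 5 reads in the higher group.

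No overshoot was called by limma on log2 FPKM. At an unadjusted p under 0.05, which 15.5% of all genes reached, 16 of the 6212 knockout genes lay on the opposite side of ff_GFP in rescued hearts (6 higher, 10 lower) and 1808 on the same side; the same-side count shares ff_GFP with the choice of genes. Limma-voom on recovered reads called 1 such gene, Gm45670, and the fit with no filter on low values another, Ahrr. Leaving out CKO_GFP replicate 1 gave 16, among them Mest, an imprinted gene of growth that averaged 21.0 FPKM in CKO_NAT10, 6.82 in CKO_GFP and 11.8 in ff_GFP hearts. Its log2 fold of 0.82 ± 0.31 (SE) against ff_GFP was not called in the full fit (limma, adjusted p = 0.22).

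Few of these genes were told apart between the G641E form and wild-type NAT10. In all, 8 genes (0.0522%) were called between CKO_G641E and CKO_NAT10, 27 without CKO_GFP replicate 1 and 1 without CKO_NAT10 replicate 2. Of the 378 genes, 5 were among the 8: Eda2r, Tlr4, Cabcoco1, Mir320 and Gm44462. Mir320 and Gm44462 rest on the few reads given above, and their calls carry no weight. Eda2r averaged 3.04 FPKM in CKO_G641E, 6.46 FPKM in CKO_NAT10 and 0.837 FPKM in ff_GFP hearts, so the G641E hearts stood nearer to control. Cabcoco1, which had a log2 fold of -1.07 in CKO_NAT10 against ff_GFP, averaged 7.68 FPKM in CKO_G641E, 3.28 in CKO_NAT10 and 7.4 in ff_GFP hearts. Tlr4, an innate immune receptor, averaged 3.96 FPKM in CKO_G641E, 2.07 in CKO_NAT10 and 1.29 in ff_GFP hearts, so there CKO_G641E stood farther from control. Its call between CKO_NAT10 and ff_GFP was lost without any 1 of the 6 libraries (limma, adjusted p = 0.0556 to 0.11). Cdkn1a averaged 44.1 FPKM in CKO_G641E against 83.0 FPKM in CKO_NAT10, which was not called (limma, adjusted p = 0.066). A miss in this comparison does not show that the 2 forms act alike, since the median SE of a log2 fold was 0.15.

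Several other lists had few or no called genes between CKO_NAT10 and ff_GFP hearts. Of all genes tested 2.47% were called, so 0 calls in the lists below is near that share. Of 42 cell cycle genes 0 were called, with a median log2 fold of 0.50, and summed levels were 171, 151 and 117 FPKM in CKO_NAT10 and 62, 150 and 110 FPKM in ff_GFP hearts. The low value of ff_GFP replicate 1 sets much of that median. Of 33 interferon-stimulated genes 0 were called. The members' median difference from the ff_GFP mean was -0.38, 1.84 and -0.12 in CKO_NAT10 replicates 1, 2 and 3. Within CKO_NAT10 the raised level thus belongs to replicate 2. The values were 1.93, -0.37 and -0.50 in CKO_GFP and 0.97, 2.17 and 0.29 in CKO_G641E hearts, so single hearts of those groups were raised too. Endothelial and macrophage markers had 0 of 16 and 0 of 18 called, with medians of 0.14 and 0.03. Of 33 genes of the ATF4 and amino acid response, Gdf15 and Sesn2 were higher, where 0.79% of all genes were. None of the 33 was called without any 1 of the 6 libraries, with voom, with no variance trend or with no filter. Sesn2 then had an adjusted p of 0.058 to 0.173 (limma) across the 6 fits without a library. Gdf15, a secreted stress cytokine, was read at 4.85, 2.73 and 5.05 FPKM in CKO_NAT10 and 0.391, 0.323 and 0.384 FPKM in ff_GFP hearts (log2 fold 2.40 ± 0.55 SE, limma, adjusted p = 0.037), and lost its call without any 1 of the 6 libraries (limma, adjusted p = 0.0589 to 0.151). Atf3 and Atf4 were not called, with log2 folds of 0.48 and 0.05.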

How the data were processed

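RNA-seq of mouse hearts, 5 groups of 3 libraries, was analysed from the table the authors deposited. Per the labels' protocols, poly(A) RNA was read as 150-base pairs, with HISAT2 2.0.5 as the aligner (GRCm38/mm10) and featureCounts 1.5.0-p3 for gene counts. The authors deposited FPKM and a gene length per gene; how their library size was set is not given in the sources used here. FPKM times length gave whole reads for 100% of values (within 0.05 reads), so depth is 13218352 to 15912700 reads in genes per library, with a median of 233 reads per tested gene and library. CASAVA and DESeq2 1.20.0 are named in the submitters' processing notes with no role.

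Genes with at least 0.5 FPKM in 3 or more of 15 libraries were tested on log2(FPKM + 0.5), so folds of low genes are understated. One limma model (limma 3.58.1, R 4.3.3) of the 5 groups (10 residual degrees of freedom, empirical Bayes with trend) gave log2 folds, standard errors and Benjamini-Hochberg adjusted p over all tested genes. The script was tested on simulated data. The replicate numbers were not treated as a pairing in the main model. Gene lists came from general knowledge; the comparison, members, lists and tests were chosen with earlier results of these data known. Named genes were first the 12 largest called changes each way and up to 8 per class and direction. These were taken among protein-coding genes of at least 1 FPKM with non-overlapping groups. Up to 4 called members of a list by smallest adjusted p, and a fixed panel, were added without those limits. Other members of a list are named as examples of its range. Promoters came from RefSeq (GRCm38.p6). Alternatives covered pseudocount, filter, scaling, test, block and leaving out libraries; leaving out CKO_GFP replicate 1 with CKO_NAT10 replicate 2, and scaling to nuclear genes, were chosen after seeing the data.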

Additional observations from a re-analysis of the deposited data

How the results depend on the processing

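Counts between CKO_NAT10 and ff_GFP moved most with the libraries. Leaving out 1 library gave 92 to 719 called genes (41 to 228 higher, 51 to 491 lower), 88 to 619 that stayed abnormal, 0 to 16 overshoots and 4 to 84 called with NAT10 and not in the knockout. CKO_G641E minus CKO_NAT10 ranged from 1 to 27, CKO_GFP minus ff_GFP from 5099 to 6807 and CKO_NAT10 minus CKO_GFP from 3467 to 5856. Fitting only the groups compared called 207 genes (123 lower), with 168 that stayed abnormal, 39 not in the knockout, 2355 between CKO_NAT10 and CKO_GFP and 0 between CKO_G641E and CKO_NAT10. Scaling to all reads in genes gave 202 higher and 83 lower, and 4 between CKO_G641E and CKO_NAT10; scaling to reads in nuclear genes gave 219, 101 and 5. Quantile normalization gave 142 higher and 190 lower. CKO_G641E minus CKO_NAT10 had 4 genes at a pseudocount of 0.1 and 5 with a filter of 1 FPKM in 6 libraries. Voom on recovered reads called 108 genes higher and 327 lower, with 1 overshoot and 11 genes not in the knockout, and no filter 1 overshoot. Without CKO_GFP replicate 1 and CKO_NAT10 replicate 2 together, 191 genes were higher, 9 overshot and 47 were not in the knockout. The replicate block called 311 genes (105 higher, 206 lower), keeping 286 of the 378. Same-numbered CKO_NAT10 and ff_GFP libraries had correlations of -0.053, 0.05 and 0.016, and differently numbered ones ran from -0.097 to 0.098. These values do not show a pairing and cannot exclude one. The balance of calls turned from mostly lower to mostly higher under both scalings to reads. No called fold of a named gene changed sign under these alternatives. The cause of these moves was not tested. The leave-one-out and smaller fits also hold fewer samples. Depth limits genes near 8 reads per library, the tenth percentile of tested values.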
